A study of Homo sapiens with 14 samples.

Results

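KLF4 ChIP-seq peaks were examined at 10 stem cell and pluripotency genes, namely SOX2, POU5F1, NANOG, LIN28A, LIN28B, PROM1, CD44, ALDH1A1, SOX9 and BMI1, of 20033 protein-coding genes in the annotation (GENCODE release 44). They were named as a list for the theme of arsenic-induced stem-like cells, and peak values played no part in the rule that assigns peaks to them. A peak was assigned to a gene when its summit lay from 10 kb upstream of the annotated gene start to 2 kb past the gene end. The cells were BEAS-2B, an established human bronchial epithelial line. WT cells were colonies that still made Nrf2 protein after CRISPR-Cas9 transfection and blasticidin selection, and Nrf2 KO cells were colonies without detectable Nrf2 protein after guides to exon 2 of the gene, so both arms had passed through editing and colony picking. Each arm was either left untreated (control) or given 1 µM As3+, trivalent arsenic, for 6 h, which makes 4 KLF4 libraries with 1 per condition. The number of colonies behind each library is not given in the sources used here. A peak list carries neither expression nor the edited exon, so neither the cell line nor the knockout could be checked in it.

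KLF4 is a zinc finger transcription factor that belongs, with POU5F1 (OCT4), SOX2 and MYC, to the set of factors used to reprogram somatic cells to pluripotency. In embryonic stem cells it binds GC-rich and CACCC-type sequences together with POU5F1, SOX2 and NANOG. In epithelia, SOX9, BMI1, CD44, PROM1 (CD133) and ALDH1A1 are used as marks of tissue stem cells or of tumour cells with stem-like behaviour, and the LIN28 proteins block maturation of the let-7 microRNAs.

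A total of 33 KLF4 peaks fell in the windows of these genes, and they came from only 2 of the 4 libraries. The WT control library had 0, where 2.51% of all protein-coding genes had a peak. The WT As3+ library had 9 at 5 of the 10 genes, beside 66.5% of all protein-coding genes, and the Nrf2 KO control library had 24 at 9 of 10, beside 81.0%. The Nrf2 KO As3+ library had 0, beside 0.439%. The exact 95% interval of each of these 4 shares for the 10 genes contains that of all protein-coding genes. POU5F1, LIN28A, CD44, SOX9 and BMI1 carried peaks in both WT As3+ and Nrf2 KO control cells. SOX2, LIN28B, PROM1 and ALDH1A1 carried them in Nrf2 KO control cells alone, and NANOG carried none in any library. With 1 library per condition these differences have no replicate check, and no test or p-value is given. The libraries are named as labelled, and whether 2 of them were exchanged was not tested. An exchange within the Nrf2 KO pair, where the control list is by far the longer, would turn round the direction of every comparison of the pair.

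**Figure D1:**
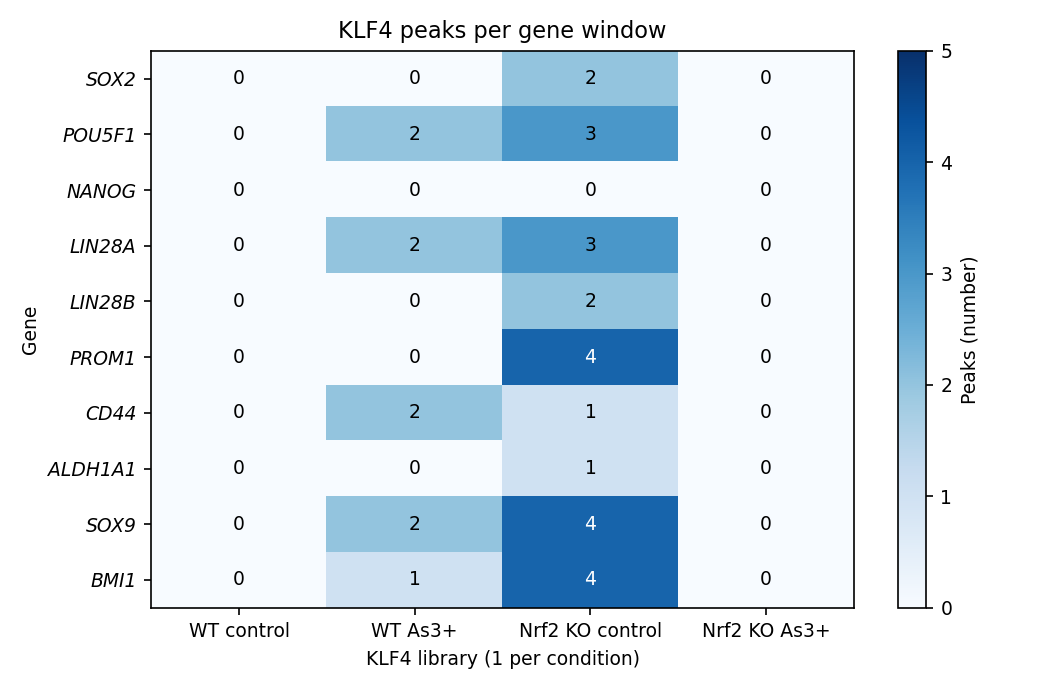
Number of KLF4 peaks in the window of each gene (rows) in the 4 KLF4 libraries (columns, 1 per condition), with the number printed in each cell. The WT control and Nrf2 KO As3+ columns hold 0 throughout, the WT As3+ column holds 0 to 2 and the Nrf2 KO control column 0 to 4.

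The 4 lists differed greatly in length before any gene was considered. They held 751 peaks (WT control), 29870 (WT As3+), 76545 (Nrf2 KO control) and 130 (Nrf2 KO As3+) on the autosomes, X and Y. For each peak the authors list a fold enrichment at the summit over what the local background predicts, with a −log10 p and a −log10 q. Together, fold and p fix how many fragments lay over the summit and how many the background predicts there. The fewest fragments at a listed summit were 10, 5, 4 and 10 in the WT control, WT As3+, Nrf2 KO control and Nrf2 KO As3+ libraries, and the lowest listed −log10 p was 4.64, 3.17, 2.87 and 5.03. The lowest background in a list was 1.90, 0.757, 0.491 and 1.64 fragments, which serves as a relative depth if the input was scaled to each library, as is usual for this file layout. The 2 long lists therefore belong to the libraries with the lower background and the weaker threshold in p. A common −log10 p of at least 5.03 was also set, after the lists had been seen. It left 9 of the 9 WT As3+ peaks and 18 of the 24 Nrf2 KO control peaks at these genes. The whole lists kept 25379 of 29870 and 56869 of 76545 peaks. The number of genes was 5 and 8, since ALDH1A1 dropped out, beside 63.1% and 76.8% of all protein-coding genes. Fold enrichment is used below to place a peak within its own list and not to compare libraries.

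To show the DNA behind these peaks, the reference sequence (GRCh38) around selected summits is printed 5′ to 3′ on the strand of the gene, from 100 bp before to 100 bp past the summit. Capitals mark 4 kinds of short word searched on both strands: the KLF words CCACACCC and CCACGCCC, the AP-1 words TGACTCA and TGAGTCA, the core of the antioxidant response element TGACNNNGC (the element Nrf2 binds), and the GC box CCCCGCCC. An AP-1 word and an antioxidant response element core can overlap, as they do at POU5F1. Windows are shown for the POU5F1 peak of Nrf2 KO control cells 2955 bp upstream of the TSS, where both words overlap (chr6:31173537-31173737, minus strand), the LIN28A promoter peak of WT As3+ cells (chr1:26409820-26410020, plus strand), which holds an AP-1 word, and the peak with the highest fold of the 24 of Nrf2 KO control cells, in the coding exon of SOX2 (chr3:181712708-181712908, plus strand).
POU5F1 Nrf2 KO control, 2955 bp upstream: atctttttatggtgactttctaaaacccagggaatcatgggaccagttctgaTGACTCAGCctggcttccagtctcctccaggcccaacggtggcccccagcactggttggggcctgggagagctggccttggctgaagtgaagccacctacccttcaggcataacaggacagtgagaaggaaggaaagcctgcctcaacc
LIN28A WT As3+, 897 bp upstream: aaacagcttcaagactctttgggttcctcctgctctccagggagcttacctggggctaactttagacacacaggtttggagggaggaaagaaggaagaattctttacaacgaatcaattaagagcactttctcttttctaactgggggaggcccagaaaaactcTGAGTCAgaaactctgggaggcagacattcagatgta
SOX2 Nrf2 KO control, coding exon: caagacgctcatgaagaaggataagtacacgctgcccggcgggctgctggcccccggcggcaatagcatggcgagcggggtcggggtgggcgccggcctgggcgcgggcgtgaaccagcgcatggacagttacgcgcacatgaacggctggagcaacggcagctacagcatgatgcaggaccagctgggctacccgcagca

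The WT As3+ peak in coding exon 1 of SOX9 (chr17:72121490-72121690, plus strand) is shown because a Nrf2 KO control peak overlapped it, and it holds none of the words.
SOX9 WT As3+, coding exon 1: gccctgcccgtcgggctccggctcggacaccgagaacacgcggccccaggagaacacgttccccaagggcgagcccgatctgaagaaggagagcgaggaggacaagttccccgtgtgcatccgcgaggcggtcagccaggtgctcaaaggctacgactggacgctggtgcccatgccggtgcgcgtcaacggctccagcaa

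For the promoter peaks of POU5F1 and CD44, which lie wholly or partly in annotated untranslated sequence, only the word and its flanks are printed. They are the GC box 42 bp from the POU5F1 summit of WT As3+ cells (chr6:31170719-31170748, minus strand), the GC box 32 bp from the CD44 summit of WT As3+ cells and 49 bp from that of Nrf2 KO control cells (chr11:35138990-35139019, plus strand), and the antioxidant response element core 92 bp from the CD44 summit of WT As3+ cells (chr11:35139050-35139078, plus strand).
POU5F1 GC box: acccatccaggGGGCGGGGccagaggtcaa
CD44 GC box: agcagagcacgGGGCGGGGgcagaggggcc
CD44 antioxidant response element core: tctgcgggctGCTTAGTCAcagcccccct

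Among the pluripotency transcription factors, SOX2, POU5F1 and NANOG, the WT As3+ library had peaks at POU5F1 only and the Nrf2 KO control library at POU5F1 and SOX2. SOX2 (chr3:181711925-181714436, plus strand) had 0 peaks in WT control, 0 in WT As3+, 2 in Nrf2 KO control and 0 in Nrf2 KO As3+ cells. Both lay in its single coding exon, at 883 bp and 1335 bp from the TSS. The first had 11 fragments (95% Poisson interval 5.49 to 19.7) over a background of 0.624, and its 7.39-fold enrichment ranked 3615th of 76545 peaks, within the top 4.72% of the list. The second had 9 fragments (4.12 to 17.1) and 6.16-fold enrichment. In WT As3+ cells the nearest peak to the SOX2 TSS was 799 kb away.

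POU5F1, which encodes OCT4 (chr6:31164337-31180731, minus strand), had 0, 2, 3 and 0 peaks in WT control, WT As3+, Nrf2 KO control and Nrf2 KO As3+ cells. One WT As3+ summit lay 9 bp upstream of the canonical TSS, with 10 fragments (4.80 to 18.4) and 5.10-fold enrichment. The other lay 15596 bp upstream of that TSS and 5547 bp upstream of the nearest annotated POU5F1 start, with 12 fragments (6.20 to 21.0) and 6.14-fold enrichment. That value was the highest fold of the 9 WT As3+ peaks, at rank 5130 of 29870. The 3 peaks of Nrf2 KO control cells had 6 or 7 fragments and folds of 3.30 to 4.15, below the median of their list, and lay at 2955 bp upstream, 596 bp downstream in intron 1 and 7932 bp downstream of the TSS. The last of these was nearer to the TSS of TCF19 than to any POU5F1 start. No POU5F1 peak of one library overlapped a peak of the other, and the closest pair of summits was 605 bp apart.

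NANOG (chr12:7787794-7799146, plus strand), the homeobox factor of the pluripotency network, had no peak in its window in any library. The nearest summit to its TSS was 60.4 kb away in Nrf2 KO control and 112 kb away in WT As3+ cells.

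Both RNA-binding factors, LIN28A and LIN28B, had peaks in Nrf2 KO control cells and LIN28A also in WT As3+ cells. LIN28A (chr1:26410817-26429728, plus strand) had 0, 2, 3 and 0 peaks in WT control, WT As3+, Nrf2 KO control and Nrf2 KO As3+ cells. The WT As3+ summits lay 897 bp upstream of the TSS and 2071 bp downstream in intron 2, with 9 fragments (4.12 to 17.1) and 8 fragments (3.45 to 15.8). In Nrf2 KO control cells the strongest peak lay 567 bp downstream in intron 1, with 10 fragments (4.80 to 18.4) and 6.67-fold enrichment, in the top 9.11% of its list. The other 2 had 6 fragments each, 4905 bp upstream and 12538 bp downstream. LIN28A was also the only one of the 10 genes within 50 kb of a WT control peak, which lay 32.3 kb upstream of its TSS, outside the window and nearest to ZNF683.

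LIN28B (chr6:104936616-105083332, plus strand) had 2 peaks, both in Nrf2 KO control cells. One lay 19046 bp upstream of the canonical TSS and 1445 bp from another LIN28B start, with 7 fragments (2.81 to 14.4). The other lay 119577 bp downstream in intron 3, with 6 fragments (2.20 to 13.1). The nearest WT As3+ peak was 97.5 kb upstream of the TSS and nearest to HACE1.

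The surface markers and the marker enzyme had peaks at all 3 genes in Nrf2 KO control cells and at CD44 alone in WT As3+ cells. CD44 (chr11:35138882-35232402, plus strand), the hyaluronan receptor, had 0, 2, 1 and 0 peaks in WT control, WT As3+, Nrf2 KO control and Nrf2 KO As3+ cells. Its promoter peak was found in both libraries at almost the same place, 199 bp upstream of the canonical TSS in WT As3+ and 216 bp upstream in Nrf2 KO control cells, so that the summits were 17 bp apart. It had 13 fragments (6.92 to 22.2) over a background of 1.69 in the former and 11 (5.49 to 19.7) over 1.07 in the latter. The nearest TSS to both summits was that of CD44-DT, the divergent non-coding transcript of this promoter, at 21 bp and 4 bp, so these peaks cannot be assigned to one of the transcripts. The second WT As3+ peak lay past the gene end, 94434 bp from the TSS, with 7 fragments (2.81 to 14.4).

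PROM1, which encodes the pentaspan membrane protein CD133 (chr4:15963076-16084378, minus strand), had 4 peaks, all in Nrf2 KO control cells. Their fragments numbered 6, 4, 6 and 6 at 747, 45350, 116402 and 121384 bp downstream of the canonical TSS. The first lay 189 bp from an annotated PROM1 start, while the last 2 were nearer to the TSS of the neighbouring FGFBP2, at 1688 and 536 bp. The PROM1 summit with 4 fragments (1.09 to 10.2) was at the lower limit of the Nrf2 KO control list. In WT As3+ cells the nearest peak was 178 kb from the PROM1 TSS.

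ALDH1A1 (chr9:72900671-73080442, minus strand), a retinaldehyde dehydrogenase, had 1 peak, in Nrf2 KO control cells, 5590 bp upstream of the canonical TSS. It had 5 fragments (1.62 to 11.7) and ranked 56439th of 76545 by fold, and the nearest WT As3+ peak was 411 kb away.

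SOX9 (chr17:72121020-72126416, plus strand), a transcription factor of epithelial progenitors, had 0, 2, 4 and 0 peaks in WT control, WT As3+, Nrf2 KO control and Nrf2 KO As3+ cells. The WT As3+ summits lay 3215 bp upstream, nearest to a start of SOX9-AS1, and 570 bp downstream in coding exon 1. Both had 10 fragments (4.80 to 18.4). The Nrf2 KO control summits lay 602 and 233 bp upstream and 165 and 1709 bp downstream, with 8, 8, 11 and 6 fragments. The strongest of these, in the untranslated part of exon 1, spanned 1243 bp and overlapped the whole 824 bp of the WT As3+ peak in exon 1, with the summits 405 bp apart. The 2 upstream peaks were closer to SOX9-AS1, which is transcribed from the opposite strand, than to SOX9.

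BMI1 (chr10:22321099-22331484, plus strand), a subunit of Polycomb repressive complex 1, had 0, 1, 4 and 0 peaks in WT control, WT As3+, Nrf2 KO control and Nrf2 KO As3+ cells. The WT As3+ summit lay 236 bp downstream of the TSS in the untranslated part of exon 1, with 12 fragments (6.20 to 21.0) and 5.12-fold enrichment. A Nrf2 KO control summit lay 94 bp further on, at 330 bp, with 12 fragments and 6.94-fold enrichment, in the top 6.93% of its list. Another, at 1191 bp in intron 1, had 8 fragments (3.45 to 15.8). The remaining 2, with 11 and 15 fragments at 5004 and 4522 bp upstream, stood beside the starts of COMMD3 and the read-through gene COMMD3-BMI1, at 291 and 125 bp. The peak with 15 fragments (8.40 to 24.7) had the most fragments of the 24 of Nrf2 KO control cells.

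**Figure D2:**
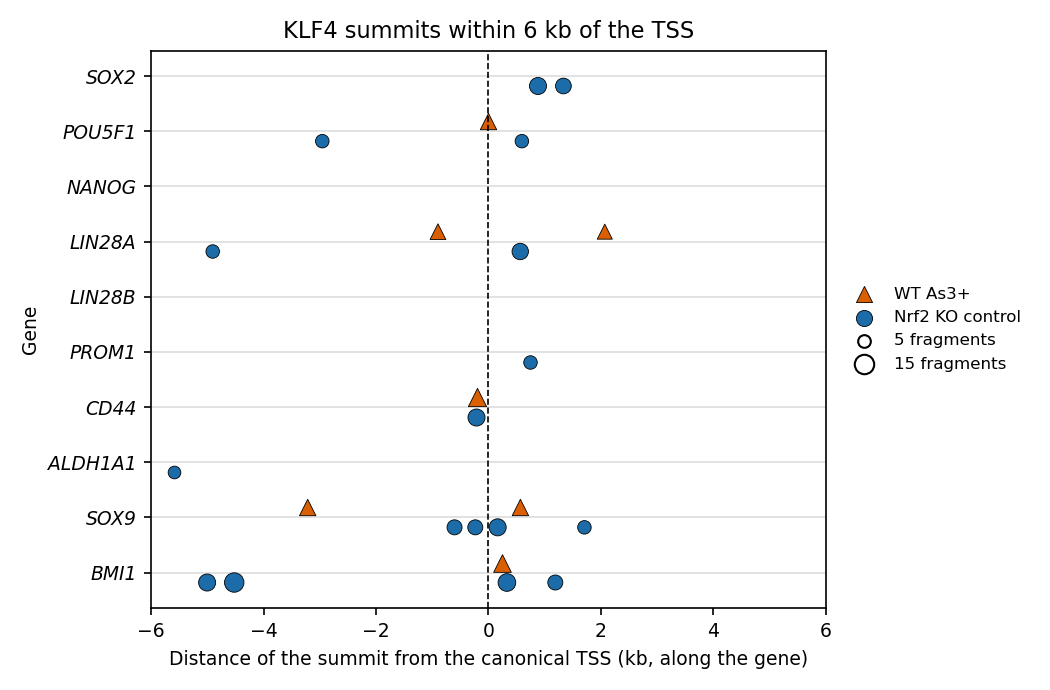
Summits of the KLF4 peaks within 6 kb of the canonical TSS of each gene (rows), in kb along the direction of transcription. Orange triangles are WT As3+ peaks, blue circles Nrf2 KO control peaks, and the area of a symbol grows with its fragments. CD44 and BMI1 have summits of both libraries less than 100 bp apart, while those of POU5F1 and LIN28A lie at different positions.

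The WT As3+ and Nrf2 KO control peaks coincided at 3 genes only. Of the 9 WT As3+ peaks, 3 (33.3%, 95% Clopper-Pearson interval 7.49 to 70.1) overlapped a Nrf2 KO control peak by at least 1 bp, at CD44, SOX9 and BMI1, beside 55.6% of all WT As3+ peaks. Of the 24 Nrf2 KO control peaks, 3 (12.5%, 2.66 to 32.4) overlapped a WT As3+ peak, beside 21.7% of that whole list. These intervals cover counting error only, and both contain the share of the whole list.

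Peaks near the start site made up 5 of the 9 WT As3+ peaks and 9 of the 24 Nrf2 KO control peaks, counted within 1 kb of the canonical TSS. A peak that close was found at 5 of 10 genes in WT As3+ cells, where 49.3% of all protein-coding genes had one. In Nrf2 KO control cells it was found at 7 of 10, namely SOX2, POU5F1, LIN28A, PROM1, CD44, SOX9 and BMI1, beside 63.6% of all protein-coding genes. Within 500 bp of the TSS the WT As3+ count was 3 (POU5F1, CD44 and BMI1), beside 42.6% of all protein-coding genes. In both libraries the median number of fragments of the peaks within 1 kb was 10, and that of the more distant peaks was 9 in WT As3+ and 6 in Nrf2 KO control cells. The median GC content of the 201 bp around the summit was 67.2% near the TSS and 55.7% farther away in WT As3+ cells, and 65.2% and 58.7% in Nrf2 KO control cells.

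**Figure D3:**
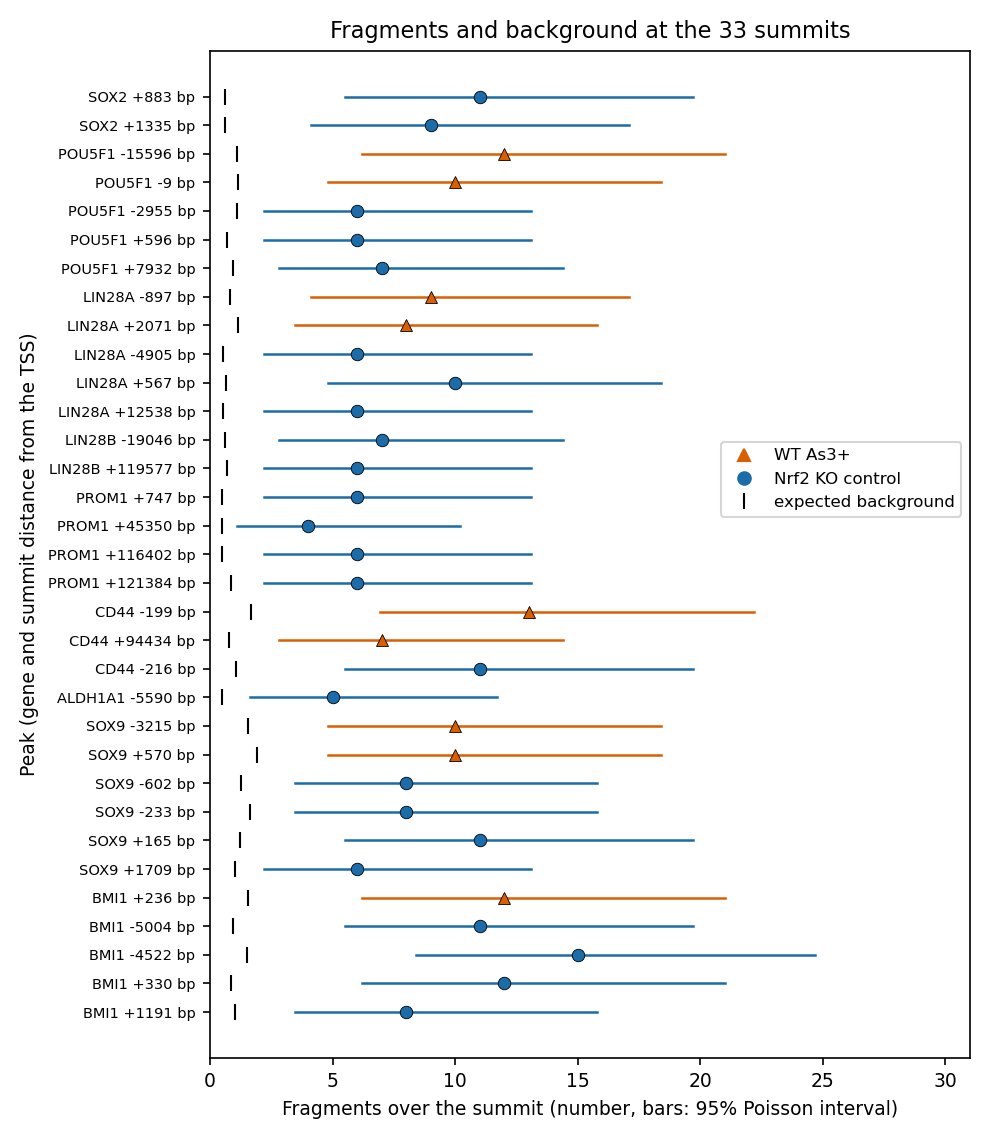
Fragments over each of the 33 summits (x axis, number) with exact 95% Poisson intervals for counting error as bars, and the background expected at the same place as a black tick. Each row is a peak, named by its gene and the distance of the summit from the canonical TSS. WT As3+ peaks (orange triangles) had 7 to 13 fragments and Nrf2 KO control peaks (blue circles) 4 to 15, and all 33 intervals overlap one another.

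The median fold of the peaks at these genes was near that of their lists. In WT As3+ cells the fold ran from 3.76 to 6.14 with a median of 5.10, beside 4.72 over the whole list, and 5 of the 9 were above that list median. In Nrf2 KO control cells it ran from 3.30 to 7.39 with a median of 4.58, beside 4.69, and 9 of the 24 were above it. A −log10 q of at least 5 was reached by 2 of the 9 WT As3+ peaks, those of POU5F1 far upstream and of the CD44 promoter, while 31.9% of the whole list reached it. It was reached by 7 of the 24 Nrf2 KO control peaks, at SOX2, LIN28A, CD44 and BMI1, beside 21.1% of that list. The median number of fragments, 10 and 7, equalled that of all peaks in the same list.

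Few of the searched words lay under these summits. None of the 9 WT As3+ windows of 201 bp held a KLF word, beside 10.4% of all WT As3+ windows, and 2 of the 24 Nrf2 KO control windows did, both at PROM1, beside 9.31% of that list. The looser word CCNCNCCC, which also matches the GC box, was in 6 of 9 and 12 of 24 windows, beside 58.2% and 50.3%. A GC box was in 2 of 9 WT As3+ windows (POU5F1 and CD44), beside 14.0%, and in 4 of 24 Nrf2 KO control windows (PROM1, CD44 and 2 at SOX9), beside 8.28%. An AP-1 word was in 1 of 9 (LIN28A, 67 bp from the summit), beside 4.34%, and in 2 of 24 (POU5F1 and SOX9), beside 2.54%. An antioxidant response element core was in 1 of 9 (CD44), beside 9.38%, and in 3 of 24 (2 at POU5F1 and 1 at SOX9), beside 9.22%. Such a match is a description of the letters and not evidence of binding by a factor, and with so few windows the shares are coarse.

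RefSeq promoter sequences (GRCh38.p14, 250 bp before to 50 bp after a start site) were at hand for 7 of the 10 genes, with 12 different start sites in all. POU5F1, LIN28A and SOX9 had no entry. None of the 12 held a KLF word, beside 8.05% of 35116 promoters. A GC box was in 3 (SOX2, CD44 and PROM1), beside 22.8%, an antioxidant response element core in 3 (CD44 and 2 of PROM1), beside 13.3%, and an AP-1 word in 1 (PROM1), beside 4.95%.

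Arsenic treatment of WT cells was followed first. In the WT control library 0 of 10 genes had a peak, where 2.51% of all protein-coding genes had one, and a list of 10 genes cannot be told apart from that share. In WT As3+ cells 5 of 10 had a peak (interval of the share 18.7% to 81.3%), beside 66.5% of all protein-coding genes. A WT As3+ peak with no WT control peak was seen at the same 5 genes, beside 64.0%. Listed KLF4 peaks were thus gained at POU5F1, LIN28A, CD44, SOX9 and BMI1 while most protein-coding genes gained them, and the interval of the share for the 10 genes contains that of all protein-coding genes. The WT As3+ library also had the lower background of the pair, which is the lower depth if the input was scaled to each library. Its list reached down to a lower −log10 p at a like q. At the common −log10 p of at least 5.03, 0 of 10 genes had a WT control peak, beside 2.5% of all protein-coding genes. At that setting 5 of 10 had a WT As3+ peak, beside 63.1%. The part of the background, or depth, in the gain was not tested.

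Loss of Nrf2 without arsenic was compared next. A peak was present in Nrf2 KO control cells at 9 of 10 genes (interval of the share 55.5% to 99.7%), beside 81.0% of all protein-coding genes, and a Nrf2 KO control peak with no WT control peak at the same 9, beside 78.5%. With the Nrf2 KO control list kept to its 29870 strongest peaks by p, as many as the WT As3+ list holds, the 9 genes became 5, namely SOX2, LIN28A, CD44, SOX9 and BMI1, beside 65.3%. The knockout and the colony from which the cells grew cannot be told apart here. The 10 genes had a median of 2.5 peaks in this library and 0.5 in the WT As3+ library, where all protein-coding genes had 2.0 and 1.0.

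Under arsenic, the comparison of WT with Nrf2 KO cells went the other way. In Nrf2 KO As3+ cells 0 of 10 genes had a peak, where 0.439% of all protein-coding genes had one. A WT As3+ peak with no Nrf2 KO As3+ peak was found at 5 of 10 genes, beside 66.1% of all protein-coding genes, and a Nrf2 KO control peak with no Nrf2 KO As3+ peak at 9 of 10, beside 80.6%. The Nrf2 KO As3+ list holds 130 peaks, and the nearest of them to any of the 10 start sites was at POU5F1, 2620 kb away.

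**Figure D4:**
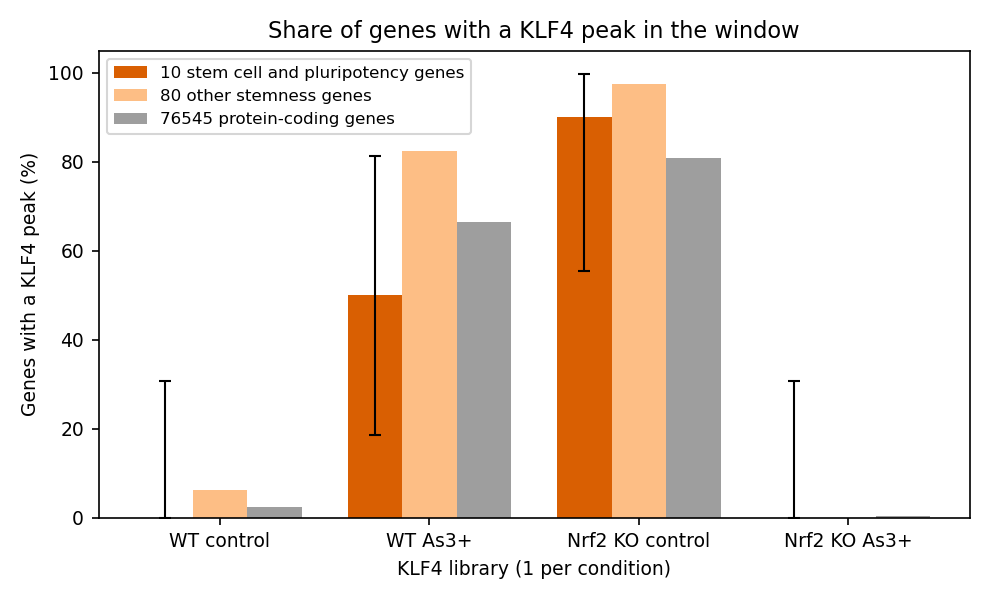
Share of genes with a KLF4 peak in the window (y axis, %) in each library for the 10 stem cell and pluripotency genes (dark orange, bars show exact 95% intervals for counting error), 80 other stemness genes (light orange) and 20033 protein-coding genes (grey). In WT As3+ cells they are 5 of 10, 82.5% and 66.5%, and in Nrf2 KO control cells 9 of 10, 97.5% and 81.0%.

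By pattern over the 4 libraries, peaks in WT As3+ and Nrf2 KO control cells only were found at 5 of the 10 genes and at 61.3% of all protein-coding genes. Peaks in Nrf2 KO control cells only were found at SOX2, LIN28B, PROM1 and ALDH1A1, 4 of 10, beside 17.0%. No peak in any library was found at NANOG, 1 of 10, beside 16.5%. The interval of the share for 4 of 10 (12.2% to 73.8%) contains the share of all protein-coding genes.

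Window length bears on such counts, since a longer window has more room for a peak. The windows ran from 14.5 kb (SOX2) to 192 kb (ALDH1A1) with a median of 29.7 kb, beside 39.5 kb for all protein-coding genes. The annotated start of ALDH1A1 lies 127389 bp before its canonical TSS, and that stretch is part of its window. Per 100 kb of window the 10 genes had 1.24 WT As3+ peaks and 3.30 Nrf2 KO control peaks, beside 1.93 and 4.50 for all protein-coding genes. Of the 4 genes with windows over 100 kb, LIN28B, PROM1, CD44 and ALDH1A1, only CD44 had a WT As3+ peak, beside 77.4% of the protein-coding genes with such windows, while all 4 had a Nrf2 KO control peak, beside 90.7%. This length class was chosen after the values had been seen, and 4 genes are too few to set apart from the rest.

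A list of 80 other stemness genes gave the surroundings of the 10 genes. In WT As3+ cells 66 of the 80 had a peak (82.5%), beside 66.5% of all protein-coding genes. In Nrf2 KO control cells 78 had one (97.5%), beside 81.0%. In WT control cells 5 had one (6.25%), beside 2.51%, and in Nrf2 KO As3+ cells 0, beside 0.439%. The 5 with a WT control peak were MYC, ALDH1A2, a paralogue of ALDH1A1, and 3 genes linked to LIN28 and let-7, the uridylyl transferase TUT7 and the RNA-binding proteins IGF2BP1 and IGF2BP3. Each of them had 1 peak in WT control and 3 to 8 in WT As3+ cells. At ALDH1A2 the WT As3+ peak with the highest fold lay 404449 bp upstream of the canonical TSS, inside the window of the annotated gene. The position of its WT control peak is not given here. MYC, for one, had 1, 5, 2 and 0 peaks in WT control, WT As3+, Nrf2 KO control and Nrf2 KO As3+ cells.

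By role, the 18 other Polycomb genes of the list all had a peak in both WT As3+ and Nrf2 KO control cells. Of all protein-coding genes, 66.5% and 81.0% had one. The list was chosen with earlier results of these data known, and the window lengths of its genes are not given here. Of the 18 pluripotency factors and partners, 11 (61.1%) had one in WT As3+ cells, below the share of all protein-coding genes, and 16 (88.9%) in Nrf2 KO control cells. Of 17 other SOX family genes 13 and 17 had one, of 9 LIN28 and let-7 partners 8 and 9, and of 18 surface markers and enzymes 16 and 18. The highest fold of a WT As3+ peak in the list was 12.5, with 40 fragments, at SOX12, 1048 bp upstream of its TSS. Next came 10.9 at IGF2BP1 and 9.90 at RING1, a catalytic partner of BMI1. All 3 values exceeded the highest fold of a WT As3+ peak at the 10 genes, 6.14. Of the 80 genes, 61 shared the pattern of POU5F1, LIN28A, CD44, SOX9 and BMI1, which 61.3% of all protein-coding genes had. Another 12 shared that of SOX2, LIN28B, PROM1 and ALDH1A1, beside 17.0% of all protein-coding genes.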

How the data were processed

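KLF4 ChIP-seq peak lists of 4 libraries were analysed, 1 per condition. The histone mark (H3K4me1 and H3K27Ac) and input libraries were not used here. The authors aligned reads to GRCh38/hg38 with BWA (bcl2fastq 2.17 in the submitters' processing notes) and deposited 1 list per library. The peak caller, its control and its settings are not given in the sources used here. Tag numbers are stated to be sampled down to the smallest library, beside the account of the density maps and genome browser views, and whether this came before the peak lists is not given in the sources used here. For each summit the deposited lists give a fold enrichment (a ratio), the −log10 of p and of q, and a score of 10 times the latter. One KLF4 input library is labelled, from WT control cells.

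Fragments n and background λ were recovered from fold = (n + 1)/(λ + 1) and p as a Poisson upper tail, with a misfit of at most 0.000405. Peaks off the main chromosomes (9, 86, 223 and 10 per list) were left out. Genes came from GENCODE 44, and the TSS from the Ensembl canonical transcript. Steps were tested on simulated data. Intervals (95%, Poisson or Clopper-Pearson) cover counting error only. Python 3.11.15, numpy 2.4.6, scipy 1.17.1, pandas 2.3.3 and matplotlib 3.10.9 were used.

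The 10 genes, the 80 other genes and the words were chosen with earlier results of these data known. Genes were named by rule: all 10, the other genes with a WT control or Nrf2 KO As3+ peak, the 3 with the highest WT As3+ fold, and others without peaks where 5 or fewer. Some genes and sequences are not reported here. Genes nearest to a described peak were looked up afterwards. Alternatives changed the window, gene model, peak threshold, list length, overlap rule, TSS distance and word.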

Additional observations from a re-analysis of the deposited data

Results flagged for a closer look

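Listed KLF4 peaks went up with As3+ in WT and down with As3+ in Nrf2 KO cells at 5 genes. This difference between WT and Nrf2 KO cells was not tested, since each condition has 1 library. The 5 genes had peaks in WT As3+ and Nrf2 KO control cells only. That pattern gives these directions by construction, and 61.3% of all protein-coding genes had it. The increase in WT minus the change in Nrf2 KO cells was 6 peaks at SOX9 (2 and −4), 5 at POU5F1 (2 and −3), 5 at LIN28A (2 and −3), 5 at BMI1 (1 and −4) and 3 at CD44 (2 and −1). Over all 10 genes it was 33 peaks (9 and −24), and for the number of genes with a peak it was 14 (5 and −9). The whole lists moved the same way, from 751 to 29870 peaks in WT and from 76545 to 130 in Nrf2 KO cells, and the part of list length in these values was not tested. The directions in Nrf2 KO cells hold for the libraries as labelled, and whether their labels were exchanged was not tested; an exchange would reverse the sign of each change in Nrf2 KO cells.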

How the results depend on the processing

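Counts of genes were equal to those given above with any overlap in place of the summit, a window from 2 kb upstream and the canonical transcript. With a window from 50 kb upstream, 1 gene (LIN28A) had a WT control peak in place of 0, beside 4.36% of all protein-coding genes. With only peaks whose −log10 q reached 5, WT As3+ peaks were at 2 genes in place of 5 (POU5F1 and CD44), beside 38.2% of all protein-coding genes, and Nrf2 KO control peaks at 4 in place of 9 (SOX2, LIN28A, CD44 and BMI1), beside 51.0%, and none of these had a peak in the other 2 libraries. With the Nrf2 KO control list cut to 29870 peaks, the length of the WT As3+ list, 5 genes had a Nrf2 KO control peak (SOX2, LIN28A, CD44, SOX9 and BMI1), with 8 peaks in place of 24, beside 65.3% of all protein-coding genes. With each list cut to its 130 strongest peaks, 0 of 10 genes had a peak in any library. Of all protein-coding genes, 0.494% then had a WT As3+ peak and 0.679% a Nrf2 KO control peak. The long lists were also cut to 751 peaks, a setting added after the data had been seen. Again 0 of 10 genes had a peak in any library, beside 3.49% in WT As3+ and 4.27% in Nrf2 KO control cells. Every comparison was thus 0 at both settings. A list that is cut holds fewer peaks by construction.

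Of the other values, WT As3+ peaks near the TSS were at 3 genes within 500 bp in place of 5 within 1 kb, beside 42.6% of all protein-coding genes. Under that stricter q they were at 1 gene within 1 kb (CD44), beside 26.7%. The wider KLF word was in 6 windows in place of 0, beside 58.2% of the WT As3+ list. Overlap with Nrf2 KO control peaks was 3 of 9 by 50% of the shorter peak, 2 of 9 by summits within 200 bp and 1 of 2 under that q. Leaving out a replicate was not possible, because each condition has 1 library. No paired analysis was possible because no condition has a second library. Read totals were not used here, so a missing peak may lie below the threshold of its list.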

Other observations

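A run of at least 12 A or T in a row was in 4 of the 24 windows of 201 bp around the Nrf2 KO control summits (16.7%), 2 at LIN28A and 1 each at LIN28B and PROM1, beside 6.58% of all Nrf2 KO control windows. It was in 0 of the 9 WT As3+ windows, beside 3.20% of that list. These 4 peaks had 6 or 7 fragments, where the median of the list was 7, and the run was looked for after the sequences had been read.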
